A study of Homo sapiens with 12 samples.

Results

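The heat-shock proteins described here are the products of 10 genes: the small heat-shock protein HSPB1, the 70 kDa chaperones HSPA1A and HSPA8, the 90 kDa chaperones HSP90AA1 and HSP90AB1, the 110 kDa chaperone HSPH1, the J-domain protein DNAJB1, the cochaperone BAG3, and the chaperonin pair HSPD1 and HSPE1. The name cytosolic fits 8 of the 10, since HSPD1 and HSPE1 work mainly in the matrix of the mitochondrion. Every probe set whose symbol field holds 1 of these genes was taken, which gave 27 of the 54675 probe sets on the array, for 10 of the 21357 gene symbols they list. Of these, 7 list a further symbol and are called shared: the 3 probe sets of HSPA1A also list HSPA1B, a gene with a nearly identical coding sequence, and the 4 of HSPA8 also list small nucleolar RNA genes of the same locus. Among those of HSPA1A, 200800_s_at lists HSPA1L as well. Of the 27 probe sets, 26 lay above the median of their own array on at least 2 of the 12 arrays and were tested, and the remaining one, 243845_at of HSPD1, did not. Each gene is described on its lead probe set, the one with the highest mean among those that carry its symbol alone, or among all its probe sets where none does.

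The arrays, Affymetrix U133 Plus 2.0, held total RNA of 3 human myeloma cell lines that stably express green fluorescent protein (GFP). INA-6 is a line that grows on interleukin 6, MM.1S is sensitive to glucocorticoids, and MM.1R is a glucocorticoid-resistant descendant of MM.1S. Each line had been kept for 24 hours with the stromal line HS-5, which comes from human bone marrow and carries no GFP, or alone, and GFP-positive cells were then sorted from the stromal cells. The 6 groups are INA-6, MM.1R and MM.1S, each after coculture and each alone, with 2 arrays per group that the series text calls technical replicates. A p-value from the 12 arrays therefore measures the spread between duplicate arrays only. Whether the cells kept alone also passed through the sorter is not given in the sources used here, so coculture and the separation from stroma cannot be told apart.

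Heat-shock proteins hold unfolded proteins in solution and help them to fold. In the cytosol, J-domain proteins such as DNAJB1 bring clients to HSP70, HSPH1 and BAG3 make HSP70 release its nucleotide and so its client, and HSP90 finishes the folding of many kinases and steroid receptors. When unfolded proteins accumulate, heat-shock factor 1 (HSF1) binds inverted GAA units in the promoters of the inducible members and switches them on, while HSPA8 and HSP90AB1 are abundant without stress. Myeloma cells make large amounts of immunoglobulin, and HSP70 and HSP90 have been studied in them as drug targets.

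The promoters of 4 members are shown, with the letters of the inverted pair of GAA units that heat-shock factor binds in capitals. Binding and activity of the factor were not measured. The pair was searched as GAANNTTC and TTCNNGAA, each of which is its own reverse complement and so covers both strands, and overlapping matches were counted. RefSeq's table for GRCh38.p14 held windows of 250 bases before and 50 after a start site for all 10 genes, 16 windows in all. The pair was in 8 of the 16 windows, against 13.5% of all 35116 windows in the table. These 8 windows belong to 7 of the 10 genes, some of which have several windows. The longer run of 3 units, GAANNTTCNNGAA or TTCNNGAANNTTC, was in a window of 4 of the 10 genes (HSPA8, HSP90AA1, HSP90AB1 and HSPD1). Of all windows 0.49% held it, which is a share per window and not per gene. These 4 genes had 0 probe sets called in the fit common to the lines, given below. The genes were listed as heat-shock proteins, so the counts describe the list and not the effect of coculture. HSPA1A, HSPB1 and DNAJB1 are shown as members that were higher in each line after coculture, and HSPA8 as one that was not. All 4 hold the pair. Other members higher in each line are not shown, among them BAG3, which was called in the common fit and holds no pair. The 250 bases before each start site read as follows, 5′ to 3′ on the strand of the gene.
HSPA1A promoter, chr6:31815293-31815542, plus strand: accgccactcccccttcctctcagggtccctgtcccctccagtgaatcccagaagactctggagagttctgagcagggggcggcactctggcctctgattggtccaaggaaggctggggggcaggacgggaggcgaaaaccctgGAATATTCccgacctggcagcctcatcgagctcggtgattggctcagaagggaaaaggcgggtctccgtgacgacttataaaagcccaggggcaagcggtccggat
HSPB1 promoter, chr7:76302423-76302672, plus strand: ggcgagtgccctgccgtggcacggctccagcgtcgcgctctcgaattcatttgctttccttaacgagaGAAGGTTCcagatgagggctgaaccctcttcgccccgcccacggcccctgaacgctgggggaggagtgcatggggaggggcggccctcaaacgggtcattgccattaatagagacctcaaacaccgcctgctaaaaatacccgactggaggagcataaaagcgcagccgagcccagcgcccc
DNAJB1 promoter, chr19:14518398-14518647, minus strand, 1 of 3 start sites: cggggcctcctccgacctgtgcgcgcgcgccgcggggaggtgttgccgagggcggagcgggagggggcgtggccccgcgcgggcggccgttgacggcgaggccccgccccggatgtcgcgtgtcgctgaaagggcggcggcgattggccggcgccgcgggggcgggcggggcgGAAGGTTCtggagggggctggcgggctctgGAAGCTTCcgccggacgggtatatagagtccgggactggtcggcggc
HSPA8 promoter, chr11:123062137-123062386, minus strand: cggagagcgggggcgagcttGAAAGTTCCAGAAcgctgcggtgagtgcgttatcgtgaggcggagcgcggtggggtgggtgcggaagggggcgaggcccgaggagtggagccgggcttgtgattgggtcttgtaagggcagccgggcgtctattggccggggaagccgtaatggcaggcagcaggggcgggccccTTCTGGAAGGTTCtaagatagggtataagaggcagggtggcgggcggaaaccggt
In HSPA1A the pair begins 106 bases before the start site and in HSPB1 182 bases before it. In DNAJB1 the pairs begin 77 and 47 bases before the start site. HSPA8 holds 4 overlapping pairs, in 2 runs of 3 units. No pair was found in the windows of BAG3, HSPH1 and HSPE1, which says only that these letters are not in these windows. A match is a stretch of letters and not a measured site.

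The values are intensities on the linear scale as deposited, and differences are on the scale log2(value + 5), which understates the change of dim probe sets. The effect common to the lines came from a limma fit of 6 averages of duplicates with the line as a block, in which the lines are the replicates. A limma fit over the 12 single arrays gave the effects within a line and the differences between lines. P-values were adjusted by Benjamini-Hochberg over all 35664 probe sets tested, with a threshold of 0.05. Errors of means are SD over n = 2 arrays, and errors of log2 differences are standard errors.

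The groups differed in RNA quality, in array-level signal and in stromal transcripts. These are given here because the comparisons below are between the same groups. For ACTB, the ratio of its 3′ control probe set to its 5′ one, which is high where transcripts are shortened, was 32.03 ± 0.531 in INA-6 after coculture and 5.51 ± 0.291 alone. In MM.1R it was 5.21 ± 0.285 after coculture and 31.4 ± 1.16 alone, and in MM.1S 5.10 ± 0.191 after coculture and 22.4 ± 0.456 alone. The ratio was thus higher after coculture in INA-6 and lower in MM.1R and MM.1S. Other array-level signals differed in the same direction in each line. The mean of the BioB control probe sets was higher alone, at 3388 against 776 after coculture in INA-6. It was 543 against 384 in MM.1R and 1832 against 338 in MM.1S. The upper quartile of all values was lower alone in each line, in INA-6 at 73.6 and 69.9 against 116.4 and 120.9 after coculture. The summed level of 23 stromal marker genes lay between 21975 and 22339.9 in INA-6 after coculture, against 5600.45 to 6798 in INA-6 alone. It was 41748 to 42378 in MM.1R after coculture, against 2395 to 2415 in MM.1R alone, and 23875 to 24320.0 in MM.1S after coculture, against 1577 to 1844 in MM.1S alone. Of 22 stromal markers tested, 9 rose in the common fit and 0 fell, and 0 of the 23 stood at the floor of 1 on any array. Of 12 plasma cell markers tested, 0 were called in the common fit, with a median change of 0.56. Their summed level, over the 13 on the array, was lower after coculture in INA-6, at 25691 to 25907 against 33563 to 33871 alone. It was higher after coculture in MM.1R, at 35404 to 35890.5 against 28088 to 28895 alone. In MM.1S it was also higher, at 35427.5 to 36050.5 against 19535.5 to 19645 alone. The part of stromal RNA, of RNA quality and of array-level signal in the results on the heat-shock proteins was not tested. In bulk RNA, fewer cells of a type and less RNA per cell cannot be told apart.

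**Figure D1:**
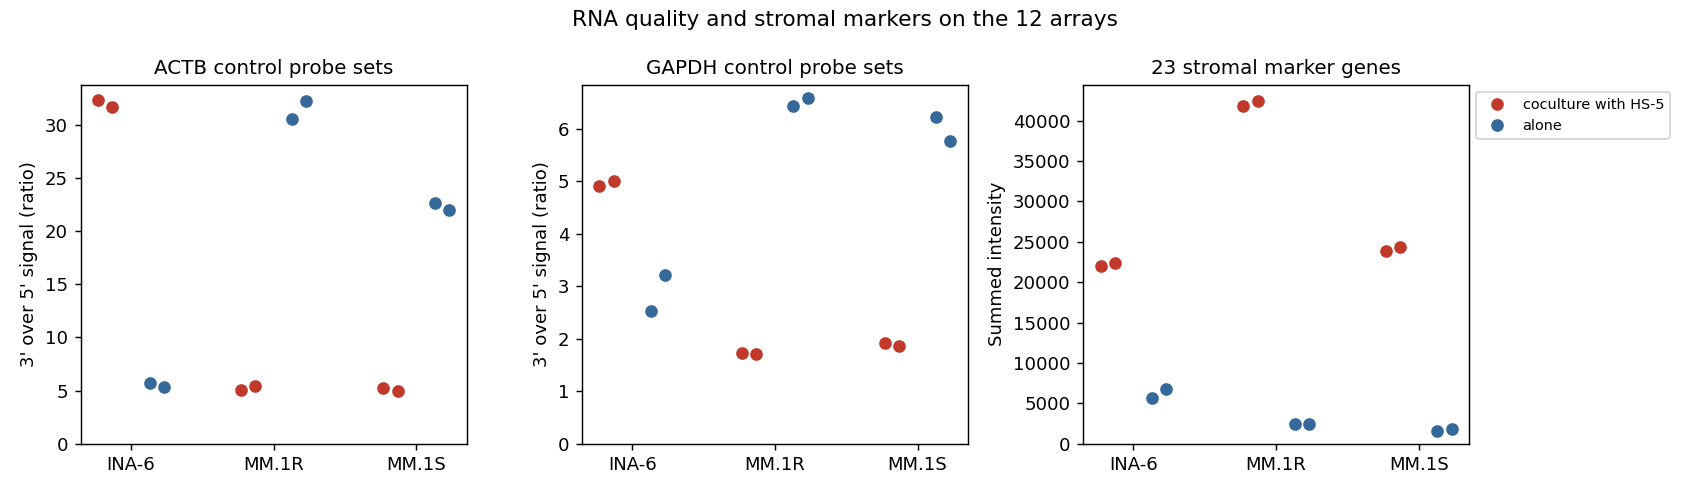
Control probe sets of ACTB (left) and GAPDH (middle), each as the 3′ over the 5′ signal, and summed intensity of 23 stromal marker genes (right), for the 2 arrays of each group. Points are single arrays, red after coculture with HS-5 and blue alone. The ACTB ratio of INA-6 is near 32 after coculture and 5.51 alone, while in MM.1R and MM.1S it is near 5 after coculture and above 22 alone.

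Across the 3 lines, 6 of the 26 tested probe sets rose after coculture and 0 fell, against 1.13% of all tested probe sets called in either direction, 1.11% called higher and 0.0168% lower. The 6 belong to HSPB1, to HSPA1A (2 shared probe sets), to DNAJB1 (both probe sets) and to BAG3. The median change was 0.68 over the 26 and 0.18 over all tested probe sets, and 10 of the 26 had an unadjusted p under 0.05. HSPA8, HSP90AA1, HSP90AB1, HSPH1, HSPD1 and HSPE1 had 0 probe sets called in this fit.

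**Figure D2:**
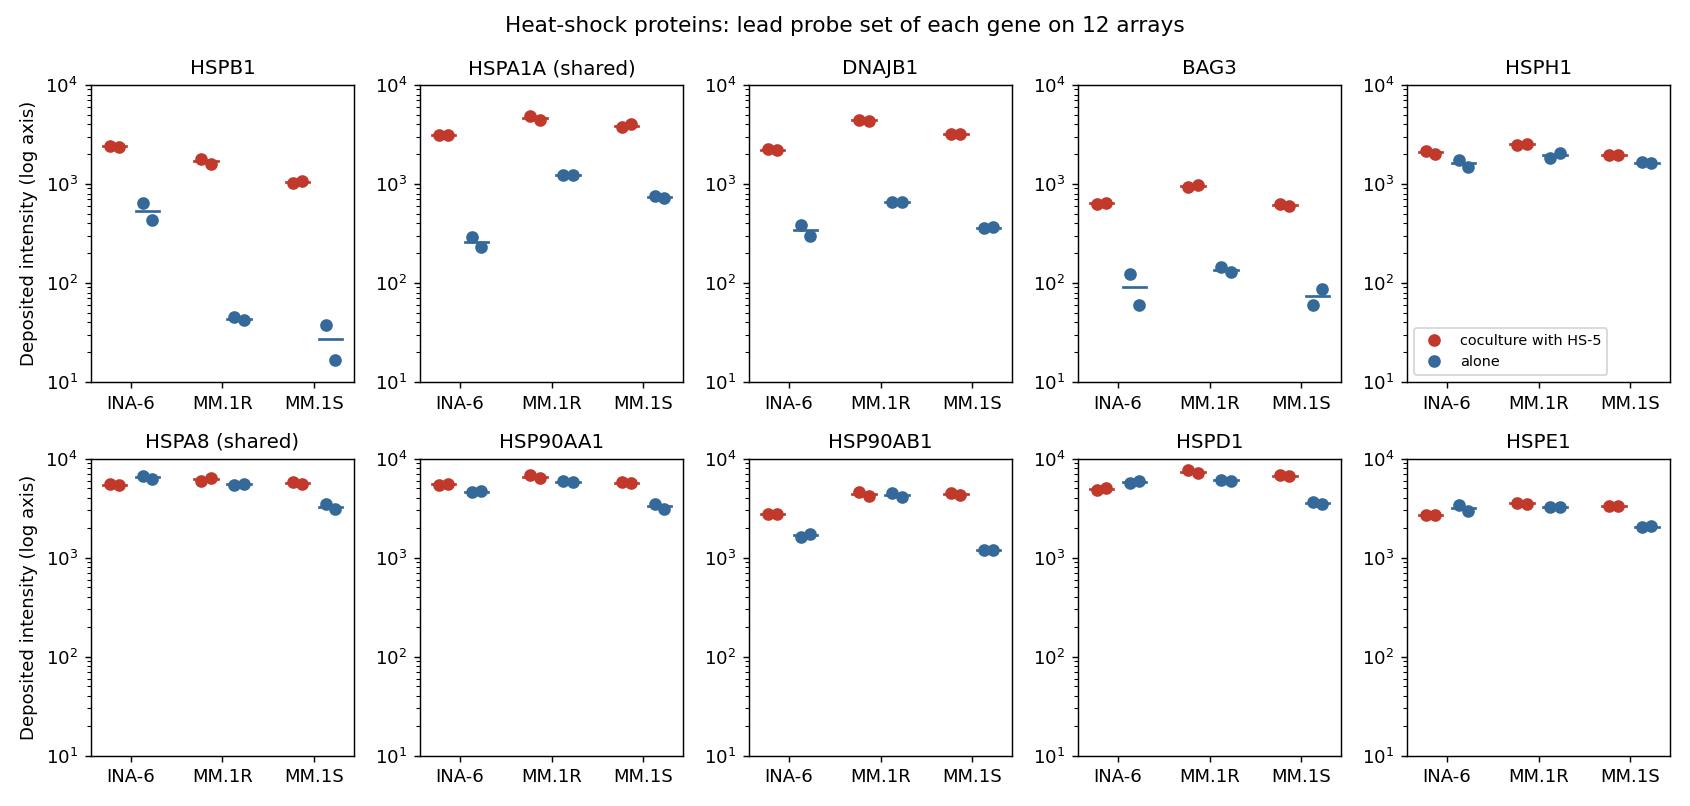
Deposited intensity (log axis) of the lead probe set of each of the 10 genes. Points are single arrays, short lines are means of the 2 arrays, red after coculture with HS-5 and blue alone; shared marks a probe set that lists further symbols. In the panels of HSPB1, HSPA1A, DNAJB1 and BAG3 the coculture arrays lie above the arrays of cells alone in each line, and in those of HSPA8, HSPD1 and HSPE1 they lie below them in INA-6.

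HSPB1, also called HSP27, is a small heat-shock protein that binds unfolded clients without ATP, and it had the largest change among the lead probe sets in the common fit. Its single probe set read 2411 and 2380.5 in INA-6 after coculture, against 635 and 432 in INA-6 alone. The same probe set read 1792 and 1597 in MM.1R after coculture, against 45.3 and 42.0 in MM.1R alone. For MM.1S the values were 1033 and 1060.1 after coculture, against 37.6 and 16.5 alone. The groups did not overlap in any line, and the cells alone were dim in MM.1R and MM.1S only. The means were 2396 ± 21.4 in INA-6 after coculture and 533 ± 144 in INA-6 alone, a fold of 4.49, against folds of 38.8 in MM.1R and 38.7 in MM.1S. The common change was 4.14 ± 0.65 (limma adjusted p = 0.0441), higher in 3 of 3 lines. Within lines it was 2.18 ± 0.32 in INA-6 (limma adjusted p = 0.000852), 5.13 ± 0.32 in MM.1R (4.4e-05) and 5.12 ± 0.32 in MM.1S (4.79e-05). The common call was lost without replicate 1 of INA-6 alone (limma adjusted p = 0.0517), without replicate 2 of it (0.0704) and after quantile normalization (0.0842). It was also lost with a pseudocount of 1 (0.0551, limma adjusted p) or 32 (0.0844) and with no filter (0.0896), with a change of at least 3.62 under every alternative run.

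HSPA1A is the main stress-inducible HSP70, and its probe sets cannot tell it from HSPA1B. The shared lead probe set 202581_at read 3115 and 3133 in INA-6 after coculture, against 289 and 232 in INA-6 alone. It read 4809 and 4424 in MM.1R after coculture, against 1219.7 and 1239 in MM.1R alone. MM.1S had 3745 and 4034 after coculture, against 757 and 725 alone. The coculture arrays were above the arrays of cells alone in every line. The change was 3.57 ± 0.18 in INA-6 (limma adjusted p = 8.08e-06), 1.90 ± 0.18 in MM.1R (0.00037) and 2.38 ± 0.18 in MM.1S (7.82e-05). Common to the lines it was 2.62 ± 0.46 (limma adjusted p = 0.0583), which did not pass the threshold, although it passed without any 1 of the 4 arrays of MM.1R or either array of MM.1S alone (0.0392 to 0.0493).

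The other two probe sets of HSPA1A did pass in the common fit. Probe set 200800_s_at, which also lists HSPA1L, rose by 4.86 ± 0.42 (limma adjusted p = 0.00886). It had 2897 and 2704 in INA-6 after coculture, against 141 and 66.0 in INA-6 alone. Probe set 200799_at rose by 5.80 ± 0.70 (limma adjusted p = 0.0216), the largest common change among the 26. In INA-6 it read 4844 and 5173 after coculture, against 534 and 297 alone. MM.1R had 3038 and 3174 after coculture, against 16.8 and 15.8 alone, and MM.1S 1831 and 1765 after coculture, against 15.1 and 13.2 alone. The 3 probe sets disagree on the order of the lines: the change in INA-6 was the largest of the 3 lines on 202581_at and the smallest on 200799_at.

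DNAJB1, or HSP40, is the J-domain protein that delivers clients to HSP70 and stimulates its ATPase. Its lead probe set read 2245 and 2199 in INA-6 after coculture, against 388 and 296 in INA-6 alone. In the glucocorticoid-resistant line it read 4403 and 4343 after coculture, against 659 and 653 in MM.1R alone. MM.1S gave 3215 and 3207 after coculture, against 355 and 368 alone. No coculture array overlapped an array of the same line alone, and the folds of means were 6.50 in INA-6, 6.67 in MM.1R and 8.89 in MM.1S. DNAJB1 rose by 2.85 ± 0.38 across the lines (limma adjusted p = 0.0297) and its second probe set, 200664_s_at, by 3.22 ± 0.38 (0.0213). The difference in this change between the 3 lines did not pass the test (limma F-test, adjusted p = 0.349). The common call of the lead probe set was lost without replicate 1 of INA-6 alone (limma adjusted p = 0.0517), without the arrays of MM.1R (0.0614) and after quantile normalization (0.0648).

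BAG3 is the nucleotide exchange factor that joins HSP70 to small heat-shock proteins and routes clients to selective autophagy. Its single probe set had 632 and 637 in INA-6 after coculture, against 123 and 60.5 in INA-6 alone. MM.1R had 933 and 967 after coculture, against 144 and 129 alone. In MM.1S the probe set had 629.8 and 598 after coculture, against 60.0 and 87.2 alone. All coculture arrays were above all arrays of cells alone, over the 3 lines together. BAG3 rose by 2.85 ± 0.37 (limma adjusted p = 0.0277), with 2.80 in INA-6, 2.76 in MM.1R and 2.998 in MM.1S, and the difference between the lines did not pass the F-test (limma adjusted p = 0.901). The common call was lost without the arrays of MM.1R (limma adjusted p = 0.0618) and after quantile normalization (0.065).

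HSPH1, the 110 kDa exchange factor of HSP70, had no call on its lead probe set in any line. Its lead probe set read 2152 and 2026 in INA-6 after coculture, against 1752 and 1482 in INA-6 alone. MM.1R had 2491 and 2539 after coculture, against 1837 and 2038 alone. In MM.1S the values were 1938 and 1952 after coculture, against 1675 and 1613 alone. The coculture arrays were above the arrays of cells alone in each line, by 0.37 ± 0.17 in INA-6, 0.38 ± 0.17 in MM.1R and 0.24 ± 0.17 in MM.1S, none of which passed the test. After quantile normalization the difference in MM.1S was -0.27, while that in INA-6 was 0.47 and passed (limma adjusted p = 0.0341). It also passed in INA-6 without replicate 1 of INA-6 alone (0.0119), and in MM.1R without either array of INA-6 alone (0.0303 each). Of its other two probe sets, 235573_at rose in INA-6 (1.99 ± 0.41, limma adjusted p = 0.00438).

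Within single lines, probe sets of the constitutive members passed the test as well, upwards in MM.1R and MM.1S and in both directions in INA-6. In INA-6, 11 of the 26 probe sets rose and 2 fell, against 35.2% of all tested probe sets called higher and 12.5% lower, so the share of members called there, 13 of 26, is close to the background of 47.7%. In MM.1R, 11 rose and 0 fell, against 10.5% of all called higher, 3.48% lower and 14% in either direction. In MM.1S, 22 rose and 0 fell, against 20.4% higher, 8.98% lower and 29.3% in either direction. The median change of the 26 was 0.54 in INA-6, 0.50 in MM.1R and 1.32 in MM.1S, against 0.40, 0.022 and 0.051 over all tested probe sets. After quantile normalization the members called were 11 higher and 2 lower in INA-6, 10 higher and 0 lower in MM.1R, and 15 higher and 0 lower in MM.1S. That scaling moved the share of higher among all calls to 60.8% in INA-6, against 73.7% as deposited, to 57.1% in MM.1R, against 75.1%, and to 57.5% in MM.1S, against 69.4%.

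**Figure D3:**
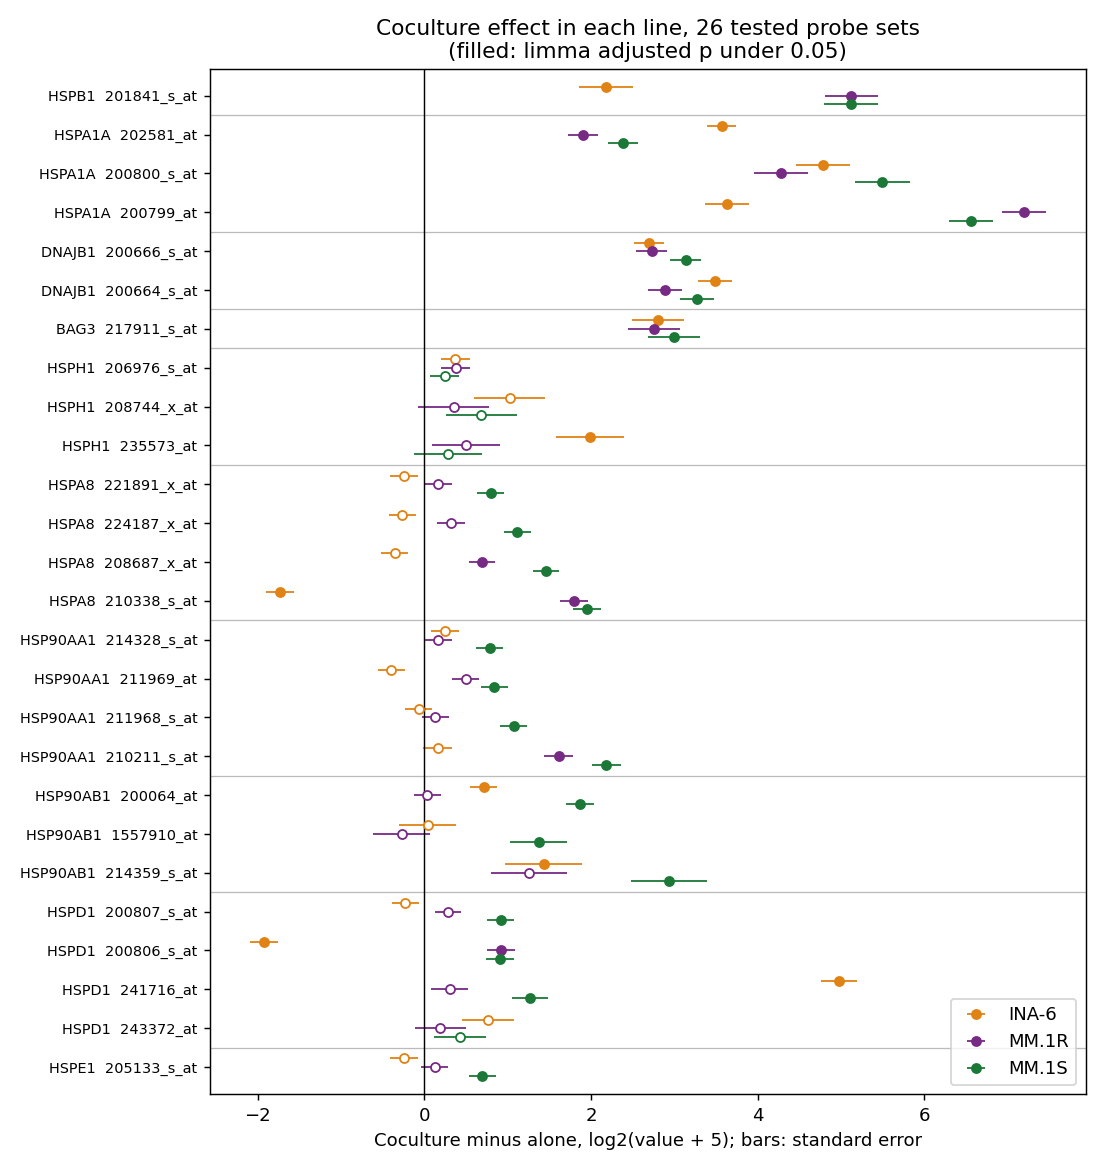
Difference of coculture minus alone on the scale log2(value + 5) for the 26 tested probe sets, with standard errors as bars, in INA-6 (orange), MM.1R (purple) and MM.1S (green). Filled points passed a limma adjusted p of 0.05. The probe sets of HSPB1, HSPA1A, DNAJB1 and BAG3 lie right of 0 in the 3 lines, and 210338_s_at of HSPA8 and 200806_s_at of HSPD1 lie left of 0 in INA-6 only.

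HSPA8, the constitutive HSP70 (HSC70), was bright on every array, and its 4 probe sets, all shared, split the lines. The lead probe set read 5489 and 5432 in INA-6 after coculture, against 6708 and 6225 in INA-6 alone. MM.1R had 5999 and 6355 after coculture, against 5394 and 5602 alone. For MM.1S the readings were 5811 and 5585 after coculture, against 3460.3 and 3107 alone. INA-6 was thus lower after coculture and MM.1S higher, with no overlap in either line. The difference was -0.24 ± 0.16 in INA-6 (limma adjusted p = 0.258), 0.17 ± 0.16 in MM.1R (0.629) and 0.80 ± 0.16 in MM.1S (0.00751). The rise in MM.1S turned to -0.24 after quantile normalization, and it did not pass without replicate 1 (limma adjusted p = 0.0648) or replicate 2 (0.0519) of MM.1S after coculture.

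The 4 probe sets of HSPA8 ranged from -1.73 to -0.24 in INA-6 (1 fell), from 0.17 to 1.80 in MM.1R (2 rose) and from 0.80 to 1.95 in MM.1S (4 rose). Probe set 210338_s_at had the widest split of the 26 in the direction of a fall in INA-6. It read 930.1 and 915 in INA-6 after coculture, against 2818 and 3335 in INA-6 alone. In MM.1R it read 2377 and 2317 after coculture, against 667 and 673 alone, and in MM.1S 2096 and 2012 after coculture, against 542 and 511 alone. INA-6 alone was the brightest group and the other two lines alone were the dimmest. The effect in INA-6 minus the mean effect of MM.1R and MM.1S was -3.60 ± 0.21 (limma adjusted p = 2.55e-05). The mean ACTB 3′ to 5′ ratio lay between 5.10 and 5.51 in the 3 groups where 210338_s_at was brightest and between 22.4 and 32.03 in the 3 where it was dimmest, and its part in the result was not tested.

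HSP90AA1, the inducible cytosolic HSP90, read 5420.0 and 5612 on its lead probe set in INA-6 after coculture, against 4555 and 4728 in INA-6 alone. MM.1R had 6769 and 6347 after coculture, against 5897 and 5792 alone. MM.1S had 5799.7 and 5618 after coculture, against 3493 and 3139 alone. The arrays did not overlap in any line, but only the difference in MM.1S passed the test as deposited. It was 0.25 ± 0.16 in INA-6 (limma adjusted p = 0.243), 0.17 ± 0.16 in MM.1R (0.631) and 0.78 ± 0.16 in MM.1S (0.00768), and quantile normalization turned the differences in MM.1R and MM.1S to -0.15 and -0.25. The rise in MM.1S did not pass without replicate 1 (0.0648, limma adjusted p) or replicate 2 (0.0542) of MM.1S after coculture. Over its 4 probe sets the difference ranged from -0.40 to 0.25 in INA-6 (0 called), from 0.13 to 1.61 in MM.1R (1 rose) and from 0.78 to 2.18 in MM.1S (4 rose). The probe set that rose in MM.1R, 210211_s_at, read 4549 and 4254 there after coculture, against 1445 and 1423 alone, a change of 1.61 ± 0.18 (limma adjusted p = 0.000761).

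HSP90AB1, the constitutive HSP90, separated the related lines MM.1R and MM.1S on its lead probe set. That probe set read 2759 and 2781 in INA-6 after coculture, against 1632 and 1749 in INA-6 alone. MM.1R had 4653 and 4179 after coculture, against 4463 and 4133 alone. MM.1S had 4468 and 4346 after coculture, against 1209 and 1203 alone. On this probe set the groups overlapped in MM.1R, where the level alone was already that of MM.1S after coculture. It rose by 0.71 ± 0.16 in INA-6 (limma adjusted p = 0.00783) and by 1.87 ± 0.16 in MM.1S (0.000141), and differed by 0.038 ± 0.16 in MM.1R (0.934). The rise in INA-6 did not pass without replicate 2 of INA-6 after coculture (0.0504, limma adjusted p). The other two probe sets of HSP90AB1 differed from the lead in MM.1R, where neither passed the test. Probe set 214359_s_at read 1551 and 1468 in MM.1R after coculture, against 612 and 649 alone, a difference of 1.25 ± 0.46 (limma adjusted p = 0.119). Probe set 1557910_at read 889 and 834 in MM.1R after coculture, against 1079 and 1002 alone, a difference of -0.27 ± 0.34 (limma adjusted p = 0.727). The groups thus did not overlap on either, with coculture above on the first and below on the second. Over the 3 probe sets the difference ranged from 0.042 to 1.43 in INA-6 (2 rose), from -0.27 to 1.25 in MM.1R (0 called) and from 1.37 to 2.94 in MM.1S (3 rose).

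The change of HSP90AB1 in MM.1R minus that in MM.1S was -1.83 ± 0.23 on the lead probe set (limma adjusted p = 0.0376), -1.69 ± 0.65 on 214359_s_at (0.278) and -1.64 ± 0.48 on 1557910_at (0.158). The lead was the single member called in that comparison (0 higher, 1 lower, against 0.398% of all probe sets in either direction, 0.0701% higher and 0.328% lower), and 13 members had an unadjusted p under 0.05. Leaving out any 1 of the 10 arrays other than the pair of INA-6 alone ended the call (limma adjusted p up to 0.278), while without replicate 1 or 2 of INA-6 alone 13 members were called, and without all INA-6 arrays 7. The duplicates of INA-6 alone had the lowest correlation of the 6 pairs, 0.821 across all tested probe sets, which are not independent, against up to 0.982 in the other groups.

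HSPD1 and HSPE1, the HSP60 and HSP10 subunits that form the folding chamber of the mitochondrial matrix, ordered the groups alike on their lead probe sets. HSPD1 read 4857 and 5085 in INA-6 after coculture, against 5731 and 5894 in INA-6 alone. MM.1R had 7626 and 7186 after coculture, against 6149.7 and 6017 alone. MM.1S had 6820.5 and 6648 after coculture, against 3689 and 3449 alone. The coculture arrays were below the arrays of cells alone in INA-6 and above them in the other two lines. HSPE1 had the same order, with 2684 and 2672 in INA-6 after coculture, against 3405 and 2959 in INA-6 alone. MM.1R had 3582 and 3478 after coculture, against 3216 and 3254 alone, and MM.1S 3343 and 3352 after coculture, against 2053 and 2076 alone.

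In MM.1S, HSPD1 rose by 0.92 ± 0.16 (limma adjusted p = 0.00337) and HSPE1 by 0.70 ± 0.16 (0.0135), and quantile normalization changed these to -0.13 and 0.056. The call of HSPE1 was lost without replicate 1 of MM.1S alone (limma adjusted p = 0.0565) and without either array of MM.1S after coculture (0.0858 and 0.0887). In INA-6 the differences were -0.23 ± 0.16 for HSPD1 (limma adjusted p = 0.28) and -0.24 ± 0.16 for HSPE1 (0.252), and that of HSPE1 passed without replicate 2 of INA-6 alone (0.0358). The other probe sets of HSPD1 disagreed with each other in INA-6. Probe set 200806_s_at fell by 1.93 ± 0.17 in INA-6 (limma adjusted p = 5.97e-05), with 943 and 925 after coculture, against 3852 and 3298 alone. Where the mean ACTB 3′ to 5′ ratio was 5.10 to 5.51, its means were 3575 (INA-6 alone), 1968 (MM.1R after coculture) and 1924 (MM.1S after coculture). Where that ratio was 22.4 to 32.03, they were 934 (INA-6 after coculture), 1039 (MM.1R alone) and 1026 (MM.1S alone). The part of the ratio in this fall was not tested. Probe set 241716_at rose by 4.98 ± 0.22 in INA-6 (6.48e-06), with 193 and 188 after coculture, against 1.42 and 1 alone, so that cells alone were at or near the lowest deposited value of 1 and the size of this change depends on the 5 added before log2.

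The difference between lines was tested for all members. By the F-test over the 3 lines, 15 of the 26 were called, against 32.8% of all probe sets. For INA-6 minus the mean of MM.1R and MM.1S, 3 members had a higher effect and 12 a lower one, against 24.1% higher, 12.8% lower and 36.9% in either direction. After quantile normalization 5 were higher and 6 lower, so that the share of higher among the member calls was 45.5%, against 20% as deposited. Among the lead probe sets the effect in INA-6 was lower for HSPB1 (-2.94 ± 0.40, limma adjusted p = 0.000838), HSPD1 (-0.83 ± 0.20, 0.012), HSPA8 (-0.72 ± 0.20, 0.0234) and HSPE1 (-0.66 ± 0.20, 0.0335), and higher for HSPA1A (1.42 ± 0.22, 0.00158). The other probe sets of HSPA1A did not share this direction, with -3.24 ± 0.32 on 200799_at (limma adjusted p = 0.000202) and -0.11 ± 0.40 on 200800_s_at (0.863). After quantile normalization the differences of HSPD1, HSPA8 and HSPE1 were -0.12, -0.02 and 0.059, and none passed. That scaling also brought calls of a higher effect in INA-6 for HSP90AA1 (0.55, limma adjusted p = 0.0408), against -0.23 ± 0.20 as deposited, and HSPH1 (0.57, 0.0421), against 0.063 ± 0.21 as deposited. With no filter HSPA8 (0.0549, limma adjusted p) and HSPE1 (0.0760) missed the threshold, and HSPE1 also missed it with median centring (0.0763) and with the replicate number as a block (0.0519). Those of HSPD1, HSPA8 and HSPE1 also missed the threshold without replicate 1 of INA-6 after coculture (limma adjusted p = 0.0602, 0.0827 and 0.108), that of HSPA8 without 5 other arrays, and that of HSPE1 without any 1 of the arrays other than the pair of INA-6 alone.

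In cells kept alone, the lines already differed in the transcripts of these genes. Between MM.1R and MM.1S, 13 members were higher in MM.1R and 0 lower, against 5.81% of all probe sets higher, 1.14% lower and 6.95% in either direction. The median difference was 0.79 over the members and 0.010 over all. HSP90AB1 was higher in MM.1R, with 4463 and 4133 against 1209 and 1203 in MM.1S, by 1.83 ± 0.16 (limma adjusted p = 0.00417), and HSPA1A (202581_at) by 0.73 ± 0.18 (0.0494), a call that was lost without any 1 of the 10 arrays other than the pair of INA-6 alone. HSPB1 had 43.6 ± 2.32 in MM.1R and 27.1 ± 14.9 in MM.1S, which did not pass (0.68 ± 0.32, limma adjusted p = 0.283). Without replicate 1 of MM.1R alone 0 members were called and HSP90AB1 had an adjusted p of 0.0714 (limma), and leaving out any other array gave 1 to 19 calls.

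Between INA-6 and the mean of MM.1R and MM.1S, both alone, 10 members were higher and 7 lower in INA-6, against 19% of all probe sets higher, 32.8% lower and 51.8% in either direction. After quantile normalization 6 were higher and 7 lower. The mean ACTB 3′ to 5′ ratio alone was 5.51 in INA-6, 31.4 in MM.1R and 22.4 in MM.1S. Its part in these differences was not tested. HSPB1 differed most among the lead probe sets, at 533 ± 144 in INA-6 alone against the MM.1R and MM.1S means above, by 3.78 ± 0.28 (limma adjusted p = 1.3e-05). HSPA1A (202581_at) was lower in INA-6, at 261 ± 40.2 against 1229 ± 13.7 in MM.1R and 741 ± 22.7 in MM.1S, a difference of -1.86 ± 0.15 (limma adjusted p = 2.42e-05). The probe sets of HSPA1A disagree here, since 200799_at was higher in INA-6 alone, by 4.32 ± 0.23 (limma adjusted p = 2.46e-06). On 200800_s_at the difference was -0.27 ± 0.28, which did not pass (limma adjusted p = 0.45). After coculture the order of HSPB1 was INA-6 (2396 ± 21.4), MM.1R (1695 ± 138) and MM.1S (1046 ± 19.5), with no overlap between neighbours. For BAG3 the order after coculture was MM.1R (949.9 ± 24.3), INA-6 (635 ± 3.27) and MM.1S (614 ± 22.5), of which INA-6 and MM.1S differ by less than the SD of MM.1S.

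Over the 12 arrays, the lead probe sets were compared by Pearson correlation, given as a description because the arrays share lines, conditions and duplicates. DNAJB1 and BAG3 had the highest correlation of any pair (0.985), and each was close to HSPA1A (0.947 and 0.914). HSPD1 and HSPE1 correlated at 0.969, and HSPA8 at 0.865 with HSPD1 and 0.900 with HSPE1. HSP90AA1 and HSP90AB1 correlated at 0.930 with each other. HSP90AA1 correlated at 0.899 with HSPD1 and 0.746 with DNAJB1, and HSP90AB1 at 0.837 with HSPD1 and 0.760 with DNAJB1. HSPH1 was closest to BAG3 (0.859) and HSPB1 to BAG3 (0.803). The lowest value was that of HSPA1A with HSPA8, at 0.180. Among 14991 other genes, the 5 closest to the mean of the standardised lead values were GABARAP (0.987), a protein of the autophagosome membrane, EDF1 (0.983), a transcriptional coactivator, VOPP1 (0.983), SH3BGRL3 (0.983) and the small GTPase CDC42 (0.981). Their common changes were 1.98, 1.30, 0.98, 2.83 and 0.73 in that order, and none was called.

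The partners of these chaperones were read from 8 lists holding 60 genes, of which 53 were tested. In the common fit 2 rose and 0 fell, against 1.11% of all tested probe sets called higher and 0.0168% lower, with a median change of 0.49 over the partners and 0.18 over all. HSPA6, a strictly inducible HSP70 with little expression in unstressed cells, rose by 3.90 ± 0.61 (limma adjusted p = 0.0442). It read 265 and 248 in INA-6 after coculture, against 42.6 and 65.2 in INA-6 alone. It had 1478 and 1454 in MM.1R after coculture, against 31.7 and 40.3 in MM.1R alone. MM.1S gave 852 and 849.5 after coculture, against 39.9 and 34.7 alone. The groups did not overlap, and the level after coculture was lowest in INA-6. DNAJB2, a J-domain protein first known from neurons, rose by 2.99 ± 0.47 (limma adjusted p = 0.0448), with 135, 219 and 155 in INA-6, MM.1R and MM.1S after coculture and 7.20, 53.7 and 9.52 alone. Both calls were lost without replicate 1 of INA-6 alone (limma adjusted p = 0.077 and 0.0747), with other pseudocounts, with no filter and after quantile normalization (0.0522 to 0.101), that of HSPA6 without MM.1R (0.0501) and that of DNAJB2 without replicate 2 of INA-6 alone (0.0561).

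Apart from HSPA6 and DNAJB2, the lists held no called gene in the common fit, and their extremes are given as values. Of 3 regulators of heat-shock factor, HSBP1, which binds the factor's trimer, differed by 2.05 ± 0.78 and HSF1 itself by -0.19 ± 0.39. The lines split on HSBP1, at -0.40 ± 0.23 in INA-6, 2.70 ± 0.23 in MM.1R and 3.85 ± 0.23 in MM.1S. The HSP70 and HSP110 list (7 tested with HSPA6 among them, median 0.012) reached down to HSPA14 (-0.72), and the J-domain list (8 tested with DNAJB2 among them, median 1.09) to DNAJB5 (-0.066). The 7 exchange factors and cochaperones of HSP70 had a median of 0.60, from HSPBP1 (0.22) to BAG4 (1.84). The 10 HSP90 cochaperones had a median of 0.55, from SUGT1 (-0.59) to CDC37 (1.18), which brings kinases to HSP90. Of the 5 other small heat-shock proteins tested, 0 were above 0, with a median of -0.57, from HSPB8 (-1.25), the usual partner of BAG3, to HSPB2 (-0.22). Their levels were low, beside array medians of 19.78 to 24.09. Group means were 5.18 to 24.65 for CRYAB, 9.555 to 41.4 for HSPB7 and 9.805 to 53.1 for HSPB9. For HSPB8 they were 14.1 to 118, and for HSPB2 26.3 to 83.9. In INA-6 alone the duplicates of HSPB9 read 101 and 5.23, so a difference at this level is coarse. The 7 subunits of the cytosolic chaperonin CCT had a median of 0.46, from CCT6A (-0.29) to CCT4 (0.80). The 6 other mitochondrial chaperones and proteases had a median of 0.57, from HSPA9 (-0.80), the mitochondrial HSP70, to the protease CLPP (1.35).

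Within single lines, 16 of the 53 partners rose and 8 fell in INA-6, where 35.2% of all tested probe sets were called higher and 12.5% lower, so that the count is near the background. In MM.1R 14 rose and 0 fell, against 10.5% higher and 3.48% lower, and in MM.1S 27 rose and 3 fell, against 20.4% higher and 8.98% lower. Of the CCT subunits, 0 of 7 were called in INA-6, 2 rose in MM.1R and 6 rose in MM.1S, beside shares of 47.7%, 14% and 29.3% of all tested probe sets called in either direction in those lines, with median changes of -0.081, 0.37 and 1.023. Of the 7 HSP70 exchange factors and cochaperones, 4 rose in INA-6, 3 in MM.1R and 4 in MM.1S, against the 35.2%, 10.5% and 20.4% of all probe sets called higher there.

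**Figure D4:**
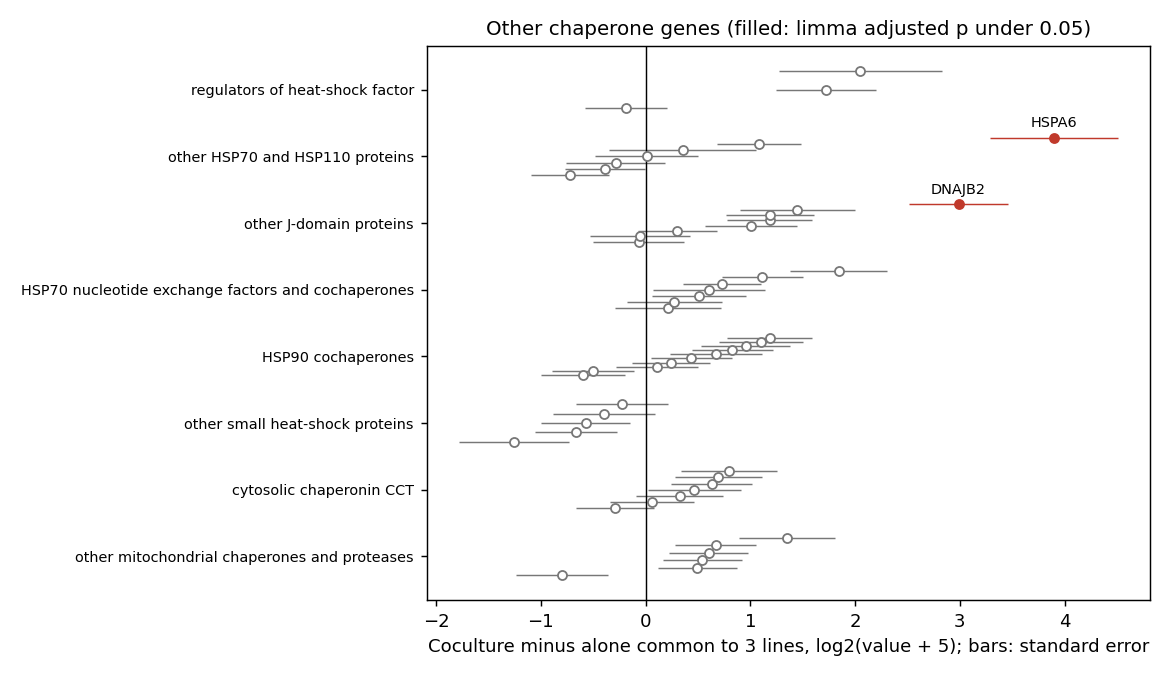
Difference of coculture minus alone common to the 3 lines, on the scale log2(value + 5), for the 53 tested partner genes in 8 lists, with standard errors as bars. Filled points passed a limma adjusted p of 0.05. HSPA6 (3.90) and DNAJB2 (2.99) are the filled points, and the 5 other small heat-shock proteins, mostly dim and not called, lie left of 0.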

How the data were processed

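Total RNA of 3 myeloma lines was measured on 12 Affymetrix arrays. The values are linear intensity values as deposited by the authors in 1 table of 54675 probe sets. Per the submitters' processing notes they come from MAS5, version not given in the sources used here, while the series text describes normalization and modeling in dChip with averaging of duplicates; the table holds 12 separate arrays, so which applies is not settled. Either way a probe set sums up several probes and a floor of 1 limits dim values.

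Computed here were log2(value + 5) and fits in limma 3.58.1 (R 4.3.3) over 35664 probe sets. Left out were 62 control probe sets, 1 with a missing value, and those not above their own array's median on at least 2 arrays. The common fit used 6 averages of duplicates with the line as a block (2 residual degrees of freedom, prior 4.82). The other fits used a mean per group over 12 arrays (6 residual degrees of freedom, prior 2.21). Tests were two-sided and moderated, with Benjamini-Hochberg adjustment. Precision is limited by the number of arrays.

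Symbols came from the array's annotation (41091 probe sets with 1 symbol, 1801 with several, 11721 with none), and 39 of 39 member gene IDs kept their symbol in RefSeq's table. Members, partner lists and marker lists were chosen with earlier results of these data known. Named were every member on its lead probe set, the highest and lowest gene of each partner list, and the 5 genes most alike; a partner gene was read on its brightest tested probe set carrying that symbol alone, and 7 of the 60 had none. Some other probe sets of members are named too, chosen after their values were seen; the rest are given by range.

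The replicate numbers were checked for pairing: differences between duplicates correlated at -0.518 to 0.576 over 15 pairs of groups, 6 of them over 0.1, so the numbers were not taken to pair arrays. Alternatives were other pseudocounts, no filter, quantile normalization, median centring, leaving out arrays or lines, no averaging, a replicate block, and 1 probe set per gene. On simulated data of 35664 probe sets with no spread between lines, the common fit recovered 0% of changes of log2 size 1, 28.4% of size 2 and 69.7% of size 4. With the spread between lines as in the data it recovered 0% at each size. That spread already held the noise between duplicates, which was added again, and only 66 or 67 probe sets were changed per size. The 0% is thus no measure of the fit to the data, which called 402 probe sets. The MM.1S fit recovered 10.4%, 50.7% and 81.8% with no spread, with 6 calls outside the changed probe sets. With spread as in the data it recovered 44.8%, 77.6% and 93.9%, and called 8476 others; in that simulation every probe set carried a random shift in each line, which a fit within 1 line counts as a change.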

Additional observations from a re-analysis of the deposited data

Results flagged for a closer look

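For 6 lead probe sets the effect of coculture differed between the 3 lines by the limma F-test over the 12 arrays, whose p-values measure the spread between duplicate arrays only. Given as the effect in INA-6 minus the mean effect in MM.1R and MM.1S on the log2 scale, HSPB1 had -2.94 (adjusted p of the F-test 0.00254). HSPA1A, on a probe set shared with HSPA1B, had 1.42 (0.00389), the single positive value among the 6. On the other shared probe sets of HSPA1A the value was -3.24 for 200799_at (0.000617) and -0.11 for 200800_s_at (0.16). HSP90AB1 had -0.24 (0.00188), with an effect in MM.1R minus that in MM.1S of -1.83. HSPD1 had -0.83 (0.0148), HSPA8 had -0.72 (0.0245) and HSPE1 had -0.66 (0.036). INA-6 is also the line in which the ACTB 3′ to 5′ ratio was higher after coculture (32.03) than alone (5.51), and the part of this in the 6 differences was not tested.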

How the results depend on the processing

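The counts of called members within each line, between INA-6 and the other lines and in cells alone stayed within 1.5 times under other pseudocounts, quantile normalization and median centring, except as follows. With 1 probe set per gene, 11 symbol fields stand in for the 26 probe sets, and the calls were 6 in INA-6, 5 in MM.1R, 10 in MM.1S, 6 by the F-test, 5 for the effect in INA-6 minus MM.1R and MM.1S, 6 for INA-6 alone and 8 for MM.1R minus MM.1S alone. Members called in the common fit were 3 after quantile normalization, 11 without averaging the duplicates and 11 without INA-6. Partner genes called were 0 with a pseudocount of 1 or 32, with no filter and after quantile normalization, 27 without averaging, 14 without INA-6 and 1 without MM.1R. Members called for the effect in MM.1R minus that in MM.1S were 0 with a pseudocount of 1, no filter or median centring, 4 with a pseudocount of 32, and 7 without all INA-6 arrays. MM.1R minus MM.1S alone gave 5 with no filter. The settings without MM.1S, without MM.1R and without all INA-6 arrays were chosen after seeing the data.

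The replicate number as a block gave 0 members for the effect in MM.1R minus that in MM.1S and 8 for MM.1R minus MM.1S alone, and moved no other count by over 1.5 times; the arrays share only a number, and no same-number pairing was taken from it. Leaving out each array in turn gave 4 to 7 members in the common fit, 11 to 17 in INA-6, 9 to 14 in MM.1R, 17 to 23 in MM.1S, 11 to 22 by the F-test, 10 to 17 for INA-6 minus the other lines, 0 to 13 for MM.1R minus MM.1S, 15 to 23 for INA-6 alone, 0 to 19 for MM.1R minus MM.1S alone, and 0 to 2 partner genes.

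Direction turned in 29 comparisons of single genes and settings, while 1316 kept direction and side of the threshold, 97 lost and 31 gained a call. Quantile normalization, which moved the median of all tested probe sets in the common fit to -0.0046, against 0.18 as deposited, gave common changes of -0.21 for HSPA8, -0.017 for HSP90AA1, -0.12 for HSPD1, -0.040 for HSPE1 and -0.10 for HSPBP1. In MM.1R it gave -0.17 for HSPA8, -0.15 for HSP90AA1, -0.30 for HSP90AB1, -0.024 for HSPD1 and -0.18 for HSPE1, and in MM.1S -0.24 for HSPA8, -0.25 for HSP90AA1, -0.27 for HSPH1 and -0.13 for HSPD1. For INA-6 minus the other lines it gave 0.55 for HSP90AA1, 0.31 for HSP90AB1 and 0.059 for HSPE1. Leaving out lines gave common changes of -0.038 for HSPA8 and -0.060 for HSPE1 without MM.1S, 0.039 for HSPB2 without MM.1R, and 0.31 for DNAJB5 and -0.36 for HSPBP1 without INA-6. Leaving out single arrays gave ranges across 0 for BAG3 (-0.56 to 0.41) and HSPH1 (-0.057 to 0.18) in INA-6 minus the other lines, HSP90AB1 in MM.1R (-0.039 to 0.12) and the common change of DNAJB5 (-0.19 to 0.058). The cause of these shifts was not tested. With 2 technical arrays per group and 3 lines, 2 of them related, the common fit has little power, and dim probe sets near the floor have only coarse folds.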
